A study of Homo sapiens with 4 samples.

Results

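The genes described here are 36 targets of the transcription factor NRF2 and related antioxidant enzymes, followed in A549, a human lung adenocarcinoma cell line, with and without knockdown of RBM4, an RNA-binding protein of splicing and translation. They were chosen by symbol from knowledge of the pathway, with earlier results of these data known. All 36 were found among the 18965 gene symbols listed in both deposited tables. The groups used were A549 cells labelled as a knockdown of RBM4 and A549 cells labelled as control, with 1 library each, both of cells grown with 10% FBS. The series also describes an H1299 knockdown and an H1299 control sample, whose values were not analysed here because no column name matched them. The A549 table names a column by the line alone, read as the control, and another by the line and a number, read as the knockdown, so the direction of each difference rests on that reading. The knockdown sample is titled A549sh, and the labels do not spell out how RBM4 was reduced or whether the cells were a clone.

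NRF2, encoded by NFE2L2, switches on genes that detoxify electrophiles and keep glutathione, thioredoxin and NADPH in their reduced state. In resting cells KEAP1 binds NRF2 and hands it to a ubiquitin ligase for destruction, while oxidants modify KEAP1 and let NRF2 accumulate. NRF2 pairs with small MAF proteins on antioxidant response elements near its targets. A549 cells are known to carry a KEAP1 mutation that leaves NRF2 active without a stimulus, so many of these genes are high in this line before any treatment.

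Most of these genes were lower in the knockdown library, by amounts that were mostly below 2-fold. Levels are given in FPKM, which counts fragments per length of transcript and per depth of sequencing, and each difference is the log2 ratio of the knockdown level to the control level after adding 1 FPKM to both. Of the 36 genes, 31 (86.1%) had a difference below 0, against 53.4% of the 12230 genes at 1 FPKM or more in either library. By at least 2-fold, 5 of 36 (13.9%) were lower, against 2.25% of all measured genes, and 0 of 36 were higher, against 4.96%. The 5 were OSGIN1, GPX2, HMOX1, FTL and TKT. The median difference was -0.43, beside -0.04 for all measured genes, and the members ran from -1.71 for OSGIN1 to 0.38 for GSTM3. A total of 20 members lay below the lower quartile of all measured genes, -0.32, and 1 lay above the upper quartile, 0.29. In such bulk RNA, fewer cells with a transcript and less of it per cell cannot be told apart. With 1 library per group these differences have no replicate error, and they were not tested. The genes were chosen with earlier results of these data known, so they are not an independent list to set beside all genes.

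Scaling bears on the count. After both libraries were rescaled to the same total the median of all genes moved by 0.10. Then 3 members (GPX2, HMOX1 and OSGIN1) stayed lower by 2-fold, against 1.64% of all genes. With mitochondrial genome genes left out as well the median of all genes moved by 0.15. These 3 members were again the ones lower by 2-fold, against 1.44% of all genes. The members' median lay 0.39 below that of all genes as deposited, and 0.38 below it under either scaling. The number of members below 0 was 30 with equal totals, against 44.0% of all genes. With mitochondrial genome genes left out it was 29, against 39.7% of all genes.

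Beside these differences stood several properties of the libraries. RBM4 itself had 30.6 FPKM in the knockdown and 59.4 FPKM in the control library, 51.5% of the control. The mitochondrial genome accounted for 21.7% of the FPKM sum in the knockdown and 18.6% in the control library. All 5 listed epithelial markers were measured, and they differed in both directions, with 1 lower and 1 higher by 2-fold. The keratin genes KRT18, at 912 FPKM in the knockdown and 1853 FPKM in the control (-1.02), and KRT8, at 888 FPKM in the knockdown and 1646 FPKM in the control (-0.89), were lower, and KRT19, at 64.9 FPKM in the knockdown and 29.6 FPKM in the control (1.11), was higher. The adhesion genes were low in both libraries, CDH1 at 6.54 FPKM in the knockdown and 7.70 FPKM in the control (-0.21) and EPCAM at 2.75 FPKM in the knockdown and 2.74 FPKM in the control (0.007). None of the 19 listed markers of alveolar or airway, fibroblast, blood or endothelial cells reached 1 FPKM, and the alveolar genes SFTPB and NKX2-1 were listed at 0 in both libraries. Their part in the results was not tested.

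**Figure D1:**
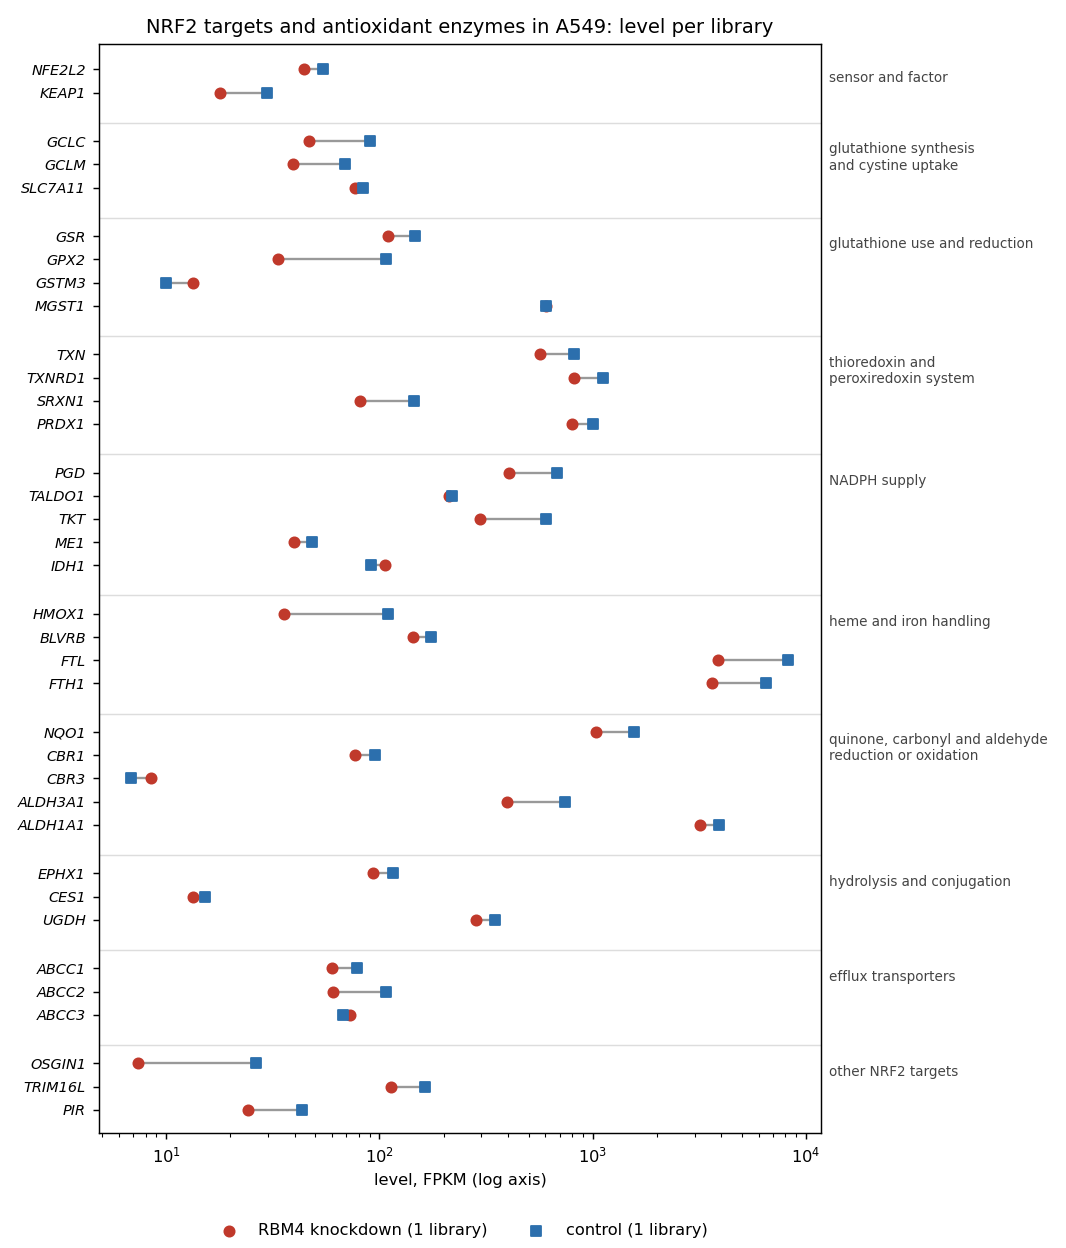
Level of each of the 36 genes in A549, in FPKM on a log axis, with the RBM4 knockdown library as circles and the control library as squares, 1 library each, grouped by role. The knockdown circle lies left of the control square for 31 genes, with the widest gaps at OSGIN1, GPX2 and HMOX1.

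The members were abundant. In each library 34 of the 36 lay above the median measured gene, which was at 12.6 FPKM in the knockdown and 12.8 FPKM in the control library. At 100 FPKM or more there were 17 members in the knockdown and 21 in the control library. Together they held 2.80% of all FPKM in the knockdown and 4.20% in the control library. Outside the mitochondrial genome these shares were 3.57% in the knockdown and 5.16% in the control library. The ferritin genes FTL and FTH1 alone made up 43.1% of the members' sum in the knockdown and 52.3% in the control library.

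Abundant genes of all kinds were more often lower in the knockdown library, so the members were also set beside genes of like level. Among the 174 genes with a mean of 500 FPKM or more, 81.6% had a difference below 0 and 7.47% were lower by 2-fold, with a median of -0.25. The 10 members in this range had a median of -0.56, with 9 below 0 and 1 lower by 2-fold. Between 50 and 500 FPKM the 18 members had a median of -0.40, against -0.17 for all 1569 genes. Of these 18 members, 16 were below 0, against 65.7% of genes, and 3 were lower by 2-fold, against 4.4%. Between 5 and 50 FPKM the 8 members had a median of -0.28, against -0.06 for all 7637 genes. Of these 8 members, 6 were below 0, against 56.3% of genes, and 1 was lower by 2-fold, against 1.94%. In each range the members' median was thus below that of all genes, by less than the gap over all levels.

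**Figure D2:**
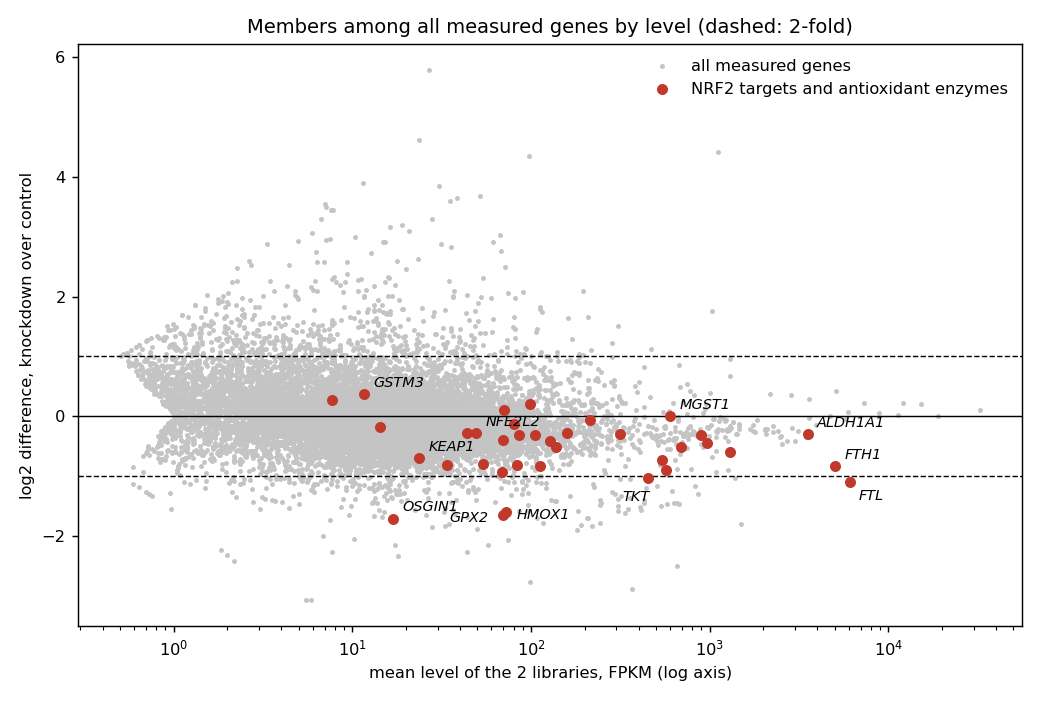
Difference of every measured gene, as log2 of knockdown over control, against its mean level in the 2 libraries in FPKM on a log axis, with the 36 members in red and 2-fold marked by dashed lines. FTL and TKT sit just past the lower line at high levels, OSGIN1, GPX2 and HMOX1 sit well below it, and the grey cloud of abundant genes lies mostly under 0.

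Promoters were read for the core of the antioxidant response element, the letters TGACNNNGC on either strand. RefSeq windows from 250 bases before to 50 bases after the transcript start (build GRCh38.p14) were matched by symbol for 25 of the 36 genes, in 33 windows. The core was found in 12 windows (36.4%), against 13.3% of all 35116 windows in the table and 14.6% of the 13998 windows of measured genes. By gene this was 11 of 25 (44.0%), against 16.1% of all symbols and 19.8% of measured symbols. The members were chosen as NRF2 targets and related enzymes, so this share is not independent of the choice. Of the 15 matches, 2 also hold the AP-1 site TGACTCA, which overlaps the element. A match is a description of letters and not evidence of binding, and elements farther from the start were not searched. Members with a match had a median difference of -0.44 over 11 genes, and members without had -0.56 over 14. Members without a match near the start may have elements farther away, and 11 members had no window. No conclusion on the element is therefore drawn from this split.

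The 6 windows below, 1 per gene, are shown because they hold the core and belong to members with a difference of -0.4 or lower. TXNRD1 has another window with a match, which begins at position -102 from its start and is not printed. Each is printed from 5′ to 3′ on the strand of its gene, with the matches in capitals. A match on the opposite strand reads GCNNNGTCA.
GCLM (chr1:93909381-93909680, minus strand): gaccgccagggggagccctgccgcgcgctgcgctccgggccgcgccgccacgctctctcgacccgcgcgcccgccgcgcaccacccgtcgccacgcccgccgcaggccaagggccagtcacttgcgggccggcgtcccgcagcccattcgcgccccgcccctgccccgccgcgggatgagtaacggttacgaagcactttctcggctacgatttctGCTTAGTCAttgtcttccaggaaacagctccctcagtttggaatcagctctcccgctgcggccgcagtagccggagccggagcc
GPX2 (chr14:64942696-64942995, minus strand): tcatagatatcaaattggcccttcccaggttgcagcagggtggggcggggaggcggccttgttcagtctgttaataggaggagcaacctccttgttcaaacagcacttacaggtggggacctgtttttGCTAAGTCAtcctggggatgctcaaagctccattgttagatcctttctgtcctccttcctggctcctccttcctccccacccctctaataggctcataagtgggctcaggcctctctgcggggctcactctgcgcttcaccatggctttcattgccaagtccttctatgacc
KEAP1 (chr19:10502722-10503021, minus strand): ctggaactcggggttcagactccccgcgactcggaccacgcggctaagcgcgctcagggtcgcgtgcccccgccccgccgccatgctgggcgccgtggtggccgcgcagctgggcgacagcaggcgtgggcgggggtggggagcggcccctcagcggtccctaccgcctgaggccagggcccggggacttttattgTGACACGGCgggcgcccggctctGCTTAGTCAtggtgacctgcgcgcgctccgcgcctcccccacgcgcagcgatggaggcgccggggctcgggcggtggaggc
PGD (chr1:10398814-10399113, plus strand): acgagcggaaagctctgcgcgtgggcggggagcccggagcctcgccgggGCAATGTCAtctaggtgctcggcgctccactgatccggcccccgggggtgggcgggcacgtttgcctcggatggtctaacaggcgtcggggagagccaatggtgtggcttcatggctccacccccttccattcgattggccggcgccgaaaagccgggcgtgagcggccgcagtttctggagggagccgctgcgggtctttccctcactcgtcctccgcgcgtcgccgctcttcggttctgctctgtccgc
PIR (chrX:15493284-15493583, minus strand): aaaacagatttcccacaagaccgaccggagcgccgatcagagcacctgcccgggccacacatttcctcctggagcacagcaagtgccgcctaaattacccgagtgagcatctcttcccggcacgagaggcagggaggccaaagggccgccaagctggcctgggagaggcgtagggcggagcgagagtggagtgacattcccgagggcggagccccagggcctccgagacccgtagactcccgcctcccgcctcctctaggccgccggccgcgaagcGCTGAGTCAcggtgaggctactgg
TXNRD1 (chr12:104215529-104215828, plus strand): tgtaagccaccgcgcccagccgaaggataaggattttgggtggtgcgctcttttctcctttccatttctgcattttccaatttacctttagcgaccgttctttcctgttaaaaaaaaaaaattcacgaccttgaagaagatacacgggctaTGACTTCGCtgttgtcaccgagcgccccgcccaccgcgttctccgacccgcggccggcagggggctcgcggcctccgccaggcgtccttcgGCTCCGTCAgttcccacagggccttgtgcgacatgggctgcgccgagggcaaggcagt
Counted from the transcript start, the match begins at position -122 in GPX2, at -34 in GCLM and at 27, inside the transcript, in PIR. TXNRD1 and KEAP1 have 2 matches each in the printed window. The windows of OSGIN1, FTL and TKT, all lower by 2-fold, hold none of these letters, and HMOX1 was not in the table.

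Among the sensor and the factor, KEAP1 was lower by more than NFE2L2. NFE2L2, which encodes NRF2, had 44.4 FPKM in the knockdown and 54.2 FPKM in the control library, a difference of -0.28. KEAP1, its repressor, had 17.8 FPKM in the knockdown and 29.5 FPKM in the control library, a difference of -0.70. The level of NFE2L2 was 2.50 times that of KEAP1 in the knockdown and 1.84 times in the control library. NRF2 is controlled mainly through its protein, whose amount these values do not measure. NFE2L2 overlaps the exons of a non-coding gene on its strand, and its level is uncertain for that reason.

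The NFE2L2 transcripts did not move together. ENST00000397062 had 21.1 FPKM in the knockdown and 30.6 FPKM in the control library, so its share of the gene was 47.6% in the knockdown and 56.5% in the control. ENST00000397063 had 18.5 FPKM in the knockdown and 17.3 FPKM in the control library, with 41.6% of the gene in the knockdown and 31.9% in the control. The lower level of NFE2L2 was therefore carried by ENST00000397062 and by minor transcripts. Both main transcripts of KEAP1 were lower, ENST00000393623 at 13.6 FPKM in the knockdown and 22.1 FPKM in the control library and ENST00000171111 at 3.19 FPKM in the knockdown and 6.36 FPKM in the control. Transcript values are the authors' estimates, and the splitting of reads between transcripts that share exons carries an error that is unknown here.

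Glutathione synthesis genes were lower, and the cystine transporter was close to equal. GCLC, the catalytic subunit of glutamate-cysteine ligase, the rate-limiting enzyme of glutathione synthesis, had 46.9 FPKM in the knockdown and 90.2 FPKM in the control library, a difference of -0.93. GCLM, its modifier subunit, had 39.3 FPKM in the knockdown and 68.7 FPKM in the control library (-0.79). Only 2.82% of all measured genes had a lower difference than GCLC, and 4.59% a lower one than GCLM, and neither reached 2-fold. GCLC shares exon sequence with a non-coding gene on its strand, and its level is uncertain for that reason. ENST00000514933, a GCLC transcript not typed as protein-coding, held 27.9% of the gene in the knockdown and 25.1% in the control library. SLC7A11, the cystine and glutamate exchanger that supplies the cysteine, had 76.7 FPKM in the knockdown and 83.5 FPKM in the control library (-0.12), which turned to 0.04 with mitochondrial genome genes left out.

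Genes that use or regenerate glutathione differed among themselves, with GPX2 at the low end. GPX2, a glutathione peroxidase typical of epithelia of the gut (ENSG00000176153, chromosome 14, 64939152 to 64942905, minus strand of hg38) was measured at 33.5 FPKM in the knockdown and 107 FPKM in the control library, 31.3% of the control and a difference of -1.65. Its main transcript, ENST00000389614, had 26.3 FPKM in the knockdown and 90.2 FPKM in the control library, and the minor ENST00000612794 had 4.56 FPKM in the knockdown and 7.43 FPKM in the control. Only 0.303% of all measured genes had a lower difference than GPX2. GSR, which reduces oxidised glutathione with NADPH, had 109.9 FPKM in the knockdown and 147 FPKM in the control library (-0.41). MGST1, a membrane-bound glutathione transferase, had 603 FPKM in the knockdown and 601 FPKM in the control library (0.005). GSTM3, a cytosolic mu-class transferase with close paralogs, had the highest difference of the members (0.38). Its level was 13.3 FPKM in the knockdown and 10.02 FPKM in the control library. Its main transcript, ENST00000361066, was near equal, at 6.75 FPKM in the knockdown and 6.29 FPKM in the control (0.09). That transcript held 50.7% of the gene in the knockdown and 62.8% in the control library. MGST1 and GSTM3 were thus not lower, unlike the peroxidase of the same group.

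All 4 genes of the thioredoxin and peroxiredoxin system were lower, each by less than 2-fold. TXN, TXNRD1 and PRDX1 had means of 500 FPKM or more, where 81.6% of all genes were below 0, so their direction was common at that level. Their differences were below the median of genes at that level, -0.25, but PRDX1 lay above the lower quartile of all measured genes, -0.32. SRXN1, the sulfiredoxin that repairs overoxidised peroxiredoxins, had 80.6 FPKM in the knockdown and 145 FPKM in the control library (-0.83), and it shares exon sequence with another gene on its strand. TXN, thioredoxin itself, had 568 FPKM in the knockdown and 813 FPKM in the control library (-0.52). TXNRD1, the selenoenzyme that reduces thioredoxin, had 818 FPKM in the knockdown and 1112 FPKM in the control library (-0.44). PRDX1, an abundant peroxide-reducing enzyme, had 802 FPKM in the knockdown and 997 FPKM in the control library (-0.31). SRXN1 was therefore the low end of this group, and the differences of TXNRD1 and PRDX1 were near the median of the members or closer to 0.

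**Figure D3:**
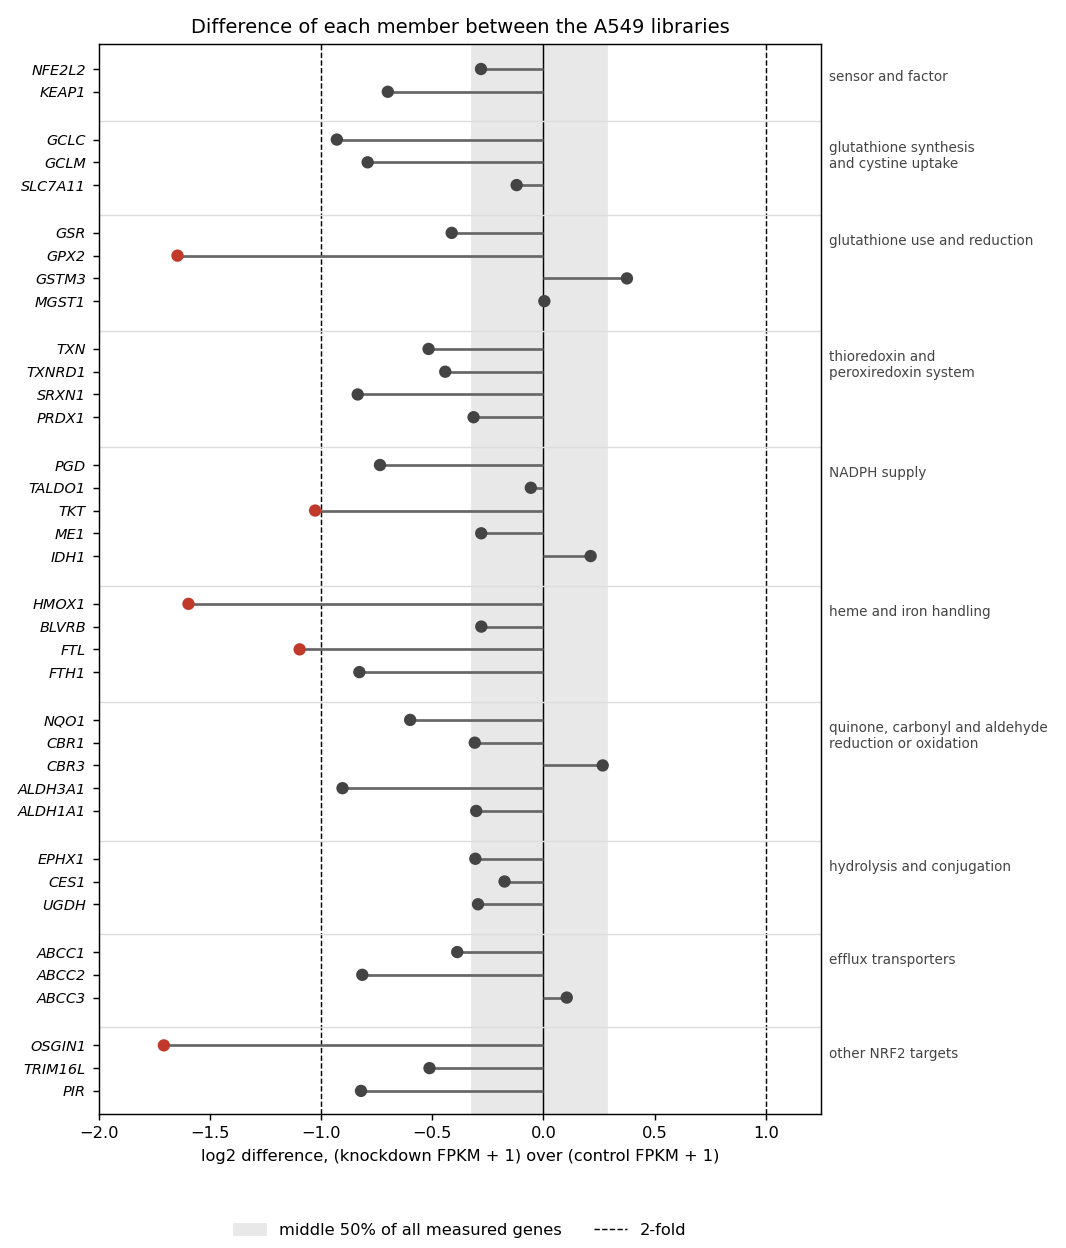
Difference of each member between the A549 libraries, as the log2 ratio after adding 1 FPKM to each level, grouped by role, with members lower by at least 2-fold in red. The grey band is the middle 50% of all measured genes, from -0.32 to 0.29, and dashed lines mark 2-fold. OSGIN1, GPX2 and HMOX1 lie at about -1.6 or lower, FTL and TKT just past -1, and no member reaches the line on the right.

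Enzymes of NADPH supply were split. TKT, the transketolase of the non-oxidative pentose phosphate pathway (ENSG00000163931, chromosome 3, 53224707 to 53256052, minus strand of hg38) was measured at 296 FPKM in the knockdown and 603 FPKM in the control library, 49.0% of the control and a difference of -1.03. Both of its main transcripts were lower, ENST00000423516 at 219.9 FPKM in the knockdown and 436 FPKM in the control library and ENST00000423525 at 59.99 FPKM in the knockdown and 136 FPKM in the control. TKT sat at the edge of the 2-fold limit and was at -0.99 after centring on the median of all genes. PGD, which makes NADPH in the oxidative branch, had 407 FPKM in the knockdown and 678 FPKM in the control library (-0.73). TALDO1, the transaldolase that works beside TKT, had 211 FPKM in the knockdown and 219 FPKM in the control library (-0.06). Of the pair that shuttles carbon through the non-oxidative branch, TKT was lower and TALDO1 was near equal. ME1, cytosolic malic enzyme, had 39.5 FPKM in the knockdown and 48.2 FPKM in the control library (-0.28). IDH1, the cytosolic NADP-dependent isocitrate dehydrogenase, had 106 FPKM in the knockdown and 91.1 FPKM in the control library (0.21). TALDO1 changed sign with the scaling, to 0.05 with equal totals and 0.11 without mitochondrial genome genes.

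Heme and iron genes had the lowest median of the 10 role groups, -0.96. Of these 4 genes, 2 were lower by 2-fold, against 2.25% of all measured genes and 7.47% of genes at 500 FPKM or more. After rescaling to equal totals 1 of the 4 was lower by 2-fold, against 1.64% of all genes. Without mitochondrial genome genes it was also 1 of the 4, against 1.44%. HMOX1, heme oxygenase, which breaks heme down to biliverdin, iron and carbon monoxide (ENSG00000100292, chromosome 22, 35380361 to 35394214, plus strand of hg38) was measured at 35.6 FPKM in the knockdown and 109.5 FPKM in the control library, 32.5% of the control and a difference of -1.60. All of its FPKM stood on the transcript ENST00000216117. BLVRB, the biliverdin reductase that can also reduce flavins, had 144 FPKM in the knockdown and 174 FPKM in the control library (-0.28). HMOX1 was thus much lower and the reductase only slightly lower.

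The ferritin subunits, which store iron, were the most abundant members. FTL, the light chain (ENSG00000087086, chromosome 19, 48965301 to 48966878, plus strand of hg38) was measured at 3869 FPKM in the knockdown and 8271 FPKM in the control library, 46.8% of the control and a difference of -1.10. FTH1, the heavy chain with the ferroxidase activity, had 3639 FPKM in the knockdown and 6457 FPKM in the control library (-0.83). The light chain was at 1.06 times the heavy chain in the knockdown and at 1.28 times in the control library. Ferritin genes have many processed copies in the genome, so how reads were shared with them is uncertain. FTL was at -0.99 with equal totals and at -0.93 without mitochondrial genome genes, short of 2-fold.

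Of the 5 enzymes acting on quinones, carbonyls and aldehydes, 4 had a difference below 0, against 53.4% of all measured genes. NQO1, ALDH3A1 and ALDH1A1 had means of 500 FPKM or more, where 81.6% of all genes were below 0. NQO1, the quinone reductase most often used as a readout of NRF2, had 1031 FPKM in the knockdown and 1562 FPKM in the control library (-0.60), and its 4 transcripts with 10% or more of the gene were all lower. ALDH3A1, an aldehyde dehydrogenase of epithelia, had 396 FPKM in the knockdown and 742 FPKM in the control library (-0.90). ALDH1A1, the retinal-oxidising aldehyde dehydrogenase, had 3169 FPKM in the knockdown and 3907 FPKM in the control library (-0.30). The ALDH1A1 difference was close to the median of genes at its level, and that of ALDH3A1 was well below it. CBR1, a carbonyl reductase, had 76.7 FPKM in the knockdown and 95.2 FPKM in the control library (-0.31). Its neighbour and paralog CBR3 was the lowest member in the control library, and had 8.47 FPKM in the knockdown and 6.87 FPKM in the control (0.27).

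Hydrolysis and conjugation genes lay near the rest of the genes. EPHX1, microsomal epoxide hydrolase, had 93.6 FPKM in the knockdown and 116 FPKM in the control library (-0.31). UGDH, which makes the UDP-glucuronate used for glucuronidation, had 283 FPKM in the knockdown and 348 FPKM in the control library (-0.29). CES1, a carboxylesterase with a near-identical copy, had 13.3 FPKM in the knockdown and 15.2 FPKM in the control library (-0.17). All 3 lay inside the middle 50% of measured genes.

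Among efflux pumps that export conjugates, ABCC2 was the lowest. ABCC2 had 60.3 FPKM in the knockdown and 107 FPKM in the control library (-0.81). ABCC1 had 59.96 FPKM in the knockdown and 78.7 FPKM in the control library (-0.39). ABCC3 had 72.9 FPKM in the knockdown and 67.7 FPKM in the control library (0.11). ABCC2 was therefore at the level of ABCC1 in the knockdown library, and above the other two in the control library.

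OSGIN1 had the lowest difference of all members. OSGIN1, an oxidative stress-induced growth inhibitor (ENSG00000140961, chromosome 16, 83948282 to 83966332, plus strand of hg38) was measured at 7.39 FPKM in the knockdown and 26.4 FPKM in the control library, 28.0% of the control and a difference of -1.71. Its main transcript, ENST00000393306, had 6.97 FPKM in the knockdown and 24.8 FPKM in the control library. OSGIN1 shares exon sequence with another protein-coding gene on its strand and is uncertain. PIR, an iron-binding nuclear protein, had 24.2 FPKM in the knockdown and 43.5 FPKM in the control library (-0.82). TRIM16L, which is nearly identical to part of TRIM16, had 114 FPKM in the knockdown and 163 FPKM in the control library (-0.51). All 3 genes lay below the lower quartile of measured genes.

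The members were also read by transcript. Gene levels are sums of these values, so a likeness between transcripts and genes is partly built in. Transcripts were not set beside others of like level. Of the 176 listed transcripts of the members, 127 were at 1 FPKM or more in either library, and 99 of these had a difference below 0, against 53.2% of all 30157 measured transcripts. By 2-fold, 22 were lower, against 8.24% of all measured transcripts, and 5 were higher, against 8.63%. The most abundant transcript was the same in both libraries for all 36 genes. In 18 genes more than 1 transcript held 10% or more of the gene, and the median absolute shift in share among these was 2.48 percentage points. The differences at gene level therefore mostly stood on the same main transcripts.

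**Figure D4:**
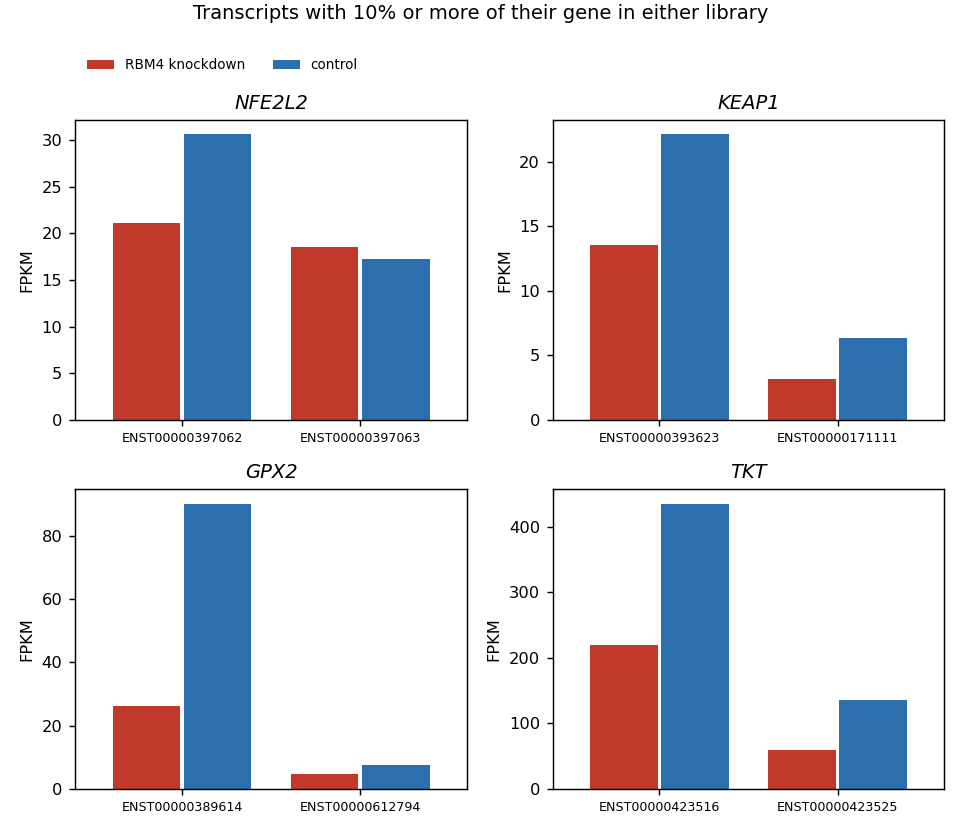
FPKM of the transcripts that held 10% or more of NFE2L2, KEAP1, GPX2 and TKT, with the RBM4 knockdown library as the left bar and the control library as the right bar of each pair, 1 library each. The knockdown bar is the shorter in 7 of 8 pairs, and ENST00000397063 of NFE2L2 is the exception, at 18.5 FPKM in the knockdown and 17.3 FPKM in the control library.

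Other genes of the pathway were read from 4 further lists, also chosen with earlier results of these data known. Partners and regulators of NRF2 had a median of -0.16 over 15 measured genes. By 2-fold, 0 of 15 were lower, against 2.25% of all measured genes, and 0 were higher, against 4.96%. MAFF, a small MAF partner, had 5.92 FPKM in the knockdown and 3.12 FPKM in the control library (0.75), and the NRF2-related factor NFE2L3 had 11.8 FPKM in the knockdown and 7.12 FPKM in the control (0.66). PGAM5, a mitochondrial phosphatase that binds KEAP1, had 22.4 FPKM in the knockdown and 35.7 FPKM in the control library (-0.65), and the coactivator CREBBP had 14.3 FPKM in the knockdown and 20.2 FPKM in the control (-0.47). Of the 15 partners and regulators, 10 (66.7%) were below 0, against 53.4% of all measured genes, and 5 were above 0.

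Further NRF2 targets outside the 36 had a median of -0.56 over 20 genes. By 2-fold, 5 were lower (25%, against 2.25% of all measured genes) and 0 were higher (against 4.96%). Of the 20, 14 were below 0 (70%, against 53.4%). AKR1C2, an aldo-keto reductase, had 671 FPKM in the knockdown and 2328 FPKM in the control library (-1.79), and its paralog AKR1C3 had 351 FPKM in the knockdown and 959 FPKM in the control (-1.45), with both uncertain because the AKR1C genes are close copies. NR0B1, an orphan nuclear receptor, had 2.94 FPKM in the knockdown and 12.1 FPKM in the control library (-1.74). The other two past 2-fold were the efflux pump ABCG2, at 14.7 FPKM in the knockdown and 36.8 FPKM in the control (-1.27), and SLC3A2, the partner chain of SLC7A11, at 137 FPKM in the knockdown and 312 FPKM in the control (-1.18). SLC3A2 was thus lower while SLC7A11 was near equal. AKR1C2 and AKR1C3 had means of 500 FPKM or more, where 7.47% of all genes were lower by 2-fold and 81.6% were below 0. SLC3A2 lay between 50 and 500 FPKM, where these shares were 4.4% and 65.7%. The highest of this list were BLVRA, the main biliverdin reductase, at 50.5 FPKM in the knockdown and 44.9 FPKM in the control library (0.17), and GSTM2, which shares exons with other GSTM genes, at 3.0 FPKM in the knockdown and 2.23 FPKM in the control (0.31).

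Antioxidant enzymes outside the 36 had a median of -0.11 over 28 measured genes of 30. Of these, 17 were below 0 (60.7%, against 53.4% of all measured genes). By 2-fold, 0 were lower (against 2.25%) and 2 were higher (against 4.96%). The 2 were SESN2, a stress-induced sestrin, at 8.95 FPKM in the knockdown and 2.74 FPKM in the control library (1.41), and GPX3, the secreted glutathione peroxidase, at 20.7 FPKM in the knockdown and 8.42 FPKM in the control (1.20). The lowest were the glutaredoxins GLRX5, at 21.4 FPKM in the knockdown and 36.2 FPKM in the control (-0.73), and GLRX, at 32.2 FPKM in the knockdown and 50.5 FPKM in the control (-0.63). GPX2 and GPX3, both glutathione peroxidases, thus differed in opposite directions.

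Other NADPH and pentose phosphate enzymes had a median of -0.07 over 13 measured genes of 14. Of these, 7 were below 0 (53.8%), close to the 53.4% of all measured genes. By 2-fold, 0 were lower (against 2.25%) and 0 were higher (against 4.96%). The lowest were NADK2, the mitochondrial NAD kinase, at 7.58 FPKM in the knockdown and 11.2 FPKM in the control library (-0.51), and MTHFD1, a cytosolic folate enzyme, at 66.6 FPKM in the knockdown and 92.8 FPKM in the control (-0.47). ALDH1L2, a mitochondrial folate enzyme, had 3.97 FPKM in the knockdown and 1.93 FPKM in the control library (0.76), and H6PD, the hexose phosphate dehydrogenase of the endoplasmic reticulum, had 9.59 FPKM in the knockdown and 6.97 FPKM in the control (0.41). The median of this list was close to that of all measured genes, -0.04. With mitochondrial genome genes left out, the medians were 0.08 for this list, 0.04 for the antioxidant enzymes, 0.001 for the partners and regulators and -0.41 for the further NRF2 targets, beside 0.11 for all genes. That scaling moves all genes up by about the same amount, and all 4 medians stayed below that of all genes. The number of further NRF2 targets lower by 2-fold was again 5, against 1.44% of all genes.

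**Figure D5:**
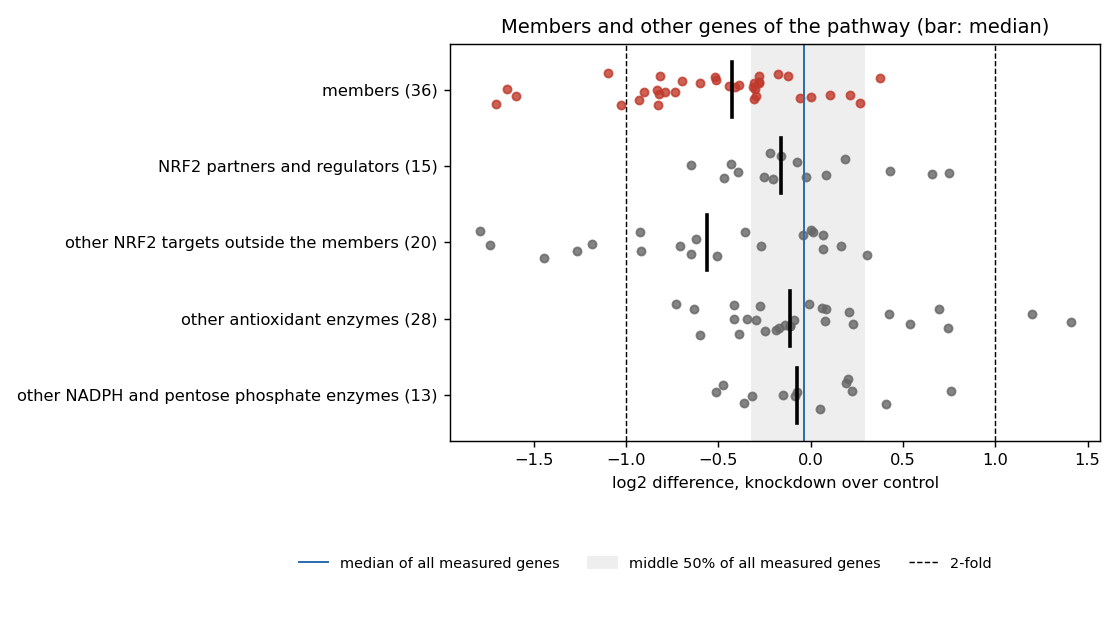
Difference of each measured gene, as log2 of knockdown over control, for the 36 members and 4 other lists of the pathway, with the number of genes in brackets, a black bar at each median, a blue line at the median of all measured genes and a grey band over their middle 50%. The medians are -0.43 for the members and -0.56 for the further NRF2 targets, against -0.16, -0.11 and -0.07 for the other lists.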

How the data were processed

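FPKM was measured per transcript in 1 A549 RBM4 knockdown library and 1 A549 control library. Some listed transcripts of the members are not typed as protein-coding, and they were included in the gene sums. The authors deposited FPKM, and CASAVA 1.8.2, TopHat and Cufflinks with hg38 are named per the submitters' processing notes, with no role or order. The annotation release, strand setting and filters are not given in the sources used here. Read totals were not given either, so depth is unknown and no counting interval is printed. Of the other table only gene symbols were read, since its 3 columns of values had names that matched no sample.

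The FPKM of all transcripts with a symbol were added up, genes at 1 FPKM or more in either library were kept, and log2 differences were taken with a pseudocount of 1 (Python 3.11.15, pandas 2.3.3), a scale that understates differences of low genes. The code for summing and calling was checked on simulated libraries, which gives no error rate for the call in these data. Positions, transcript lengths and exon overlap were read from GENCODE release 29, which uses the same build. All members were named, along with RBM4, the 5 epithelial markers, and the 2 highest, the 2 lowest and any 2-fold genes of each other pathway list. The members and lists were chosen with earlier results of these data known, and 1 gene that stood in both the list of further targets and that of NADPH enzymes is not reported here and was left out of both. Close paralogs or processed copies make the levels of FTL, FTH1, PRDX1, TALDO1, TRIM16L, CES1, GSTM3, CBR1, TXN, MGST1 and PGD uncertain. Alternatives changed the pseudocount, minimum, scaling, call limit, transcript used and members kept.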

Additional observations from a re-analysis of the deposited data

How the results depend on the processing

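The count of members lower by 2-fold was 5 as deposited. It stayed between 4 and 5 with a pseudocount of 0.1 or 0.5, with no minimum, with a minimum of 5 FPKM, after centring, with the highest transcript per gene, without members that have close copies and, chosen after seeing the data, without members that share exons. Over those settings between 1.39% and 3.42% of all genes were lower. The count was 3 with both libraries rescaled to the same total, against 1.64% of all genes. It was 3 with mitochondrial genome genes left out, against 1.44%. With a limit of 1.5-fold it was 15, and 9.83% of all genes were lower. The median of -0.43 became -0.26 without mitochondrial genome genes, and that of all genes became 0.11. Between 29 and 32 of the 36 members were below 0 under the settings that kept all of them. Under the same settings between 38.8% and 57.5% of all genes were below 0. The count of members higher was 0 under all of these settings, the limit of 1.5-fold included. Of all genes, between 3.08% and 12.7% were higher. No paired analysis was possible because each group had 1 library, and leaving out a replicate was not possible for the same reason. The planned H1299 comparison was not run, because no column name matched its samples. Depth limits each value by an amount that is unknown.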

Other observations

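Some minor transcripts of the members differed in ways the gene totals do not show. These were chosen after their values were seen. In GSR, ENST00000546342 held 10.4% of the gene in the knockdown and 0.0308% in the control library, at 11.5 FPKM in the knockdown and 0.0451 FPKM in the control, while ENST00000541648 was listed at 0 in the knockdown and at 7.15 FPKM in the control library. In ALDH3A1, the second transcript, ENST00000494157, had 48.0 FPKM in the knockdown and 139 FPKM in the control library (-1.52), a larger difference than that of the gene. NFE2L2 transcript ENST00000446151 was listed at 0 in the knockdown and at 3.41 FPKM in the control library. The split of reads between transcripts is an estimate with unknown error.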
